A study of Mus musculus with 18 samples.

Results

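The genes described are Mt1, Mt2, Mtf1 and Slc30a1, which are 4 of the 20207 genes listed for every library. They were chosen by name, as the metallothioneins, their regulator and a zinc exporter, with their levels and fold changes in these libraries already known. Their values are therefore given as a description, without a test. All 4 had at least 1 read in every library and so were among the 12731 genes fitted.

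The cells were NIH3T3, an established line of mouse fibroblasts, carrying a stably integrated fusion of a destabilizing domain to GFP and sorted for high GFP. The ligand S1, which keeps this domain folded, was present in all groups. Poly(A) RNA was sequenced from unstressed cells at 0 min (control), from cells under heat stress (HS) for 45 or 135 min, and from cells given tunicamycin (Tu), a blocker of N-linked glycosylation, for 45, 135 or 405 min. Each of the 6 groups had 3 libraries, and no unstressed group was taken later than 0 min, so that stress and time in culture cannot be told apart. The labels do not say whether the 3 libraries of a group came from separate cultures, and p-values therefore measure only the spread between these libraries, which may be technical.

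Libraries held 33415592 to 66478268 reads on genes, and 3 reads corresponded to 0.0451 to 0.0898 CPM, a floor that covers counting error only. The heat chaperone gene Hsph1 went from 202 CPM in control to 2028 at 135 min of HS. The endoplasmic reticulum stress gene Ddit3 had 71.9 CPM in control and 541.8, 207.7 and 2630 at 45, 135 and 405 min of Tu. Hspa5, an endoplasmic reticulum chaperone gene, had 691.7 CPM in control and 935.2, 414.9 and 9012 at these times of Tu. Both also rose at 135 min of HS, Ddit3 to 359.9 and Hspa5 to 1341 CPM. All 8 fibroblast markers were detected, with summed levels of 9150 to 9636 RPKM in control and 4324 to 4823 RPKM at 405 min of Tu. There 6 of the 8 fell in edgeR, beside 23.5% of all genes. At 135 min of HS 1 of the 8, Col3a1, rose, beside 4.75% of all genes. The marker S100a4 ran from 61.42 to 2101 RPKM in the libraries at 135 min of HS, against 2367 to 3215 in control. Of 8 markers of other cell types, 7 stayed under 1 RPKM in every group, and the summed level of the list was 4.04 to 8.13 RPKM. Libraries also differed in how their levels followed the GC content of transcripts, with a Spearman correlation across genes between -0.63 and 0.62, and the methods name more than 1 way of preparing libraries without saying which library had which.

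Metallothioneins are small cysteine-rich proteins that bind zinc and copper and so buffer both metals in the cytosol. Mtf1 encodes the zinc-sensing transcription factor MTF1, which binds metal response elements (MREs) in front of its target genes when zinc is high. Mt1 and Mt2 are its best known targets, and Slc30a1, another target, encodes ZnT1, the transporter that carries zinc out of the cell across the plasma membrane. Metallothionein genes are also known to respond to glucocorticoids, oxidants and other stresses.

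All 4 genes lie on the plus strand of the mm9 assembly used by the authors. Mt2 (chr8:96696518-96697467) and Mt1 (chr8:96702989-96704225) are neighbours, with 5521 bases between the end of Mt2 and the start of Mt1. Mtf1 spans chr4:124479793-124527044 and Slc30a1 chr1:193730660-193737126. The 250 bases before the start of each gene were taken from RefSeq (GRCm38.p6) and each was found exactly once in mm9. They are shown for the 3 genes whose window held an MRE core, searched as TGCACNC or TGCGCNC on both strands. Capitals mark the cores, and a core on the minus strand appears as its complement.
Mt1, chr8:96702739-96702988, plus strand: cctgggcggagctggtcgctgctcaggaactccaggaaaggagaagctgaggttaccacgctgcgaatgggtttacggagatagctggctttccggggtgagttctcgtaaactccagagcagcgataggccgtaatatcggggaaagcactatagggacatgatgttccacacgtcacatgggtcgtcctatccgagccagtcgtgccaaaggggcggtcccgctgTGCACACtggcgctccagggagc
Mt2, chr8:96696268-96696517, plus strand: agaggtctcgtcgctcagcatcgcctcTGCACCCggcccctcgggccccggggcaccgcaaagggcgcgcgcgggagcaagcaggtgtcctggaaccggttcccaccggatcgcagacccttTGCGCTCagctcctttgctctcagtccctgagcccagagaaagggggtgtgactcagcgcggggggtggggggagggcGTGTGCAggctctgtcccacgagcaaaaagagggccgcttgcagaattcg
Slc30a1, chr1:193730410-193730659, plus strand: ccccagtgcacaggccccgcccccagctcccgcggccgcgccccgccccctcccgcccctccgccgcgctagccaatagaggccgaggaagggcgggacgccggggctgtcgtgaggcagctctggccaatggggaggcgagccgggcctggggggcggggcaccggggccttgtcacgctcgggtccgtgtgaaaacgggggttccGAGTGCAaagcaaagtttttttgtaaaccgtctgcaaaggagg

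The Mt2 window held 3 MRE cores, the Mt1 and Slc30a1 windows 1 each, and the Mtf1 window 0. Of 32851 RefSeq promoters of the same length, 21.41% held at least 1 core and 1.263% at least 3, so a single core is common. An antioxidant response element (TGACNNNGC), the kind of site bound by NRF2, matched once in the Mt2 window, where its letters TGACTCAGC also contain an AP-1 site, and once in the Slc30a1 window, against 10.16% of all promoters. A heat shock element pair (GAANNTTC or TTCNNGAA) and the C/EBP-ATF element TGATGNAA matched in none of the 4 windows, against 12.84% and 3.452% of all promoters. No matches of different motifs overlapped, and these are matches of letters, which say nothing of binding.

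Most cores of Mt1 and Mt2 lay downstream of the annotated start. In the first 150 bases, Mt1 held 4 cores, at positions 3 to 9, 21 to 27, 85 to 91 and 99 to 105, an antioxidant response element (TGACTATGC) at 53 to 61 and a TATAAA at 122 to 127. Mt2 held 4 cores as well, at 5 to 11, 59 to 65, 78 to 84 and 112 to 118, and a TATAAA at 136 to 141. Among 22367 coding genes, 17.34% had at least 1 core there and 15 genes (0.06706%) had 4 or more. In both genes the TATAAA lies past all 4 cores. A 2nd annotated start of Mt1 lies 122 bases after the RefSeq start, so that these 4 cores lie before it. Which start these cells use was not tested, so the cores may lie before the start in use. The stretch with the closest pair of cores is shown for each gene, with capitals marking the cores.
Mt1, chr8:96703068-96703097, plus strand: ctgctGGGTGCAaacccttTGCGCCCggac
Mt2, chr8:96696574-96696603, plus strand: gcGTGTGCAggcggcgggggcGCGTGCAtg

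**Figure D1:**
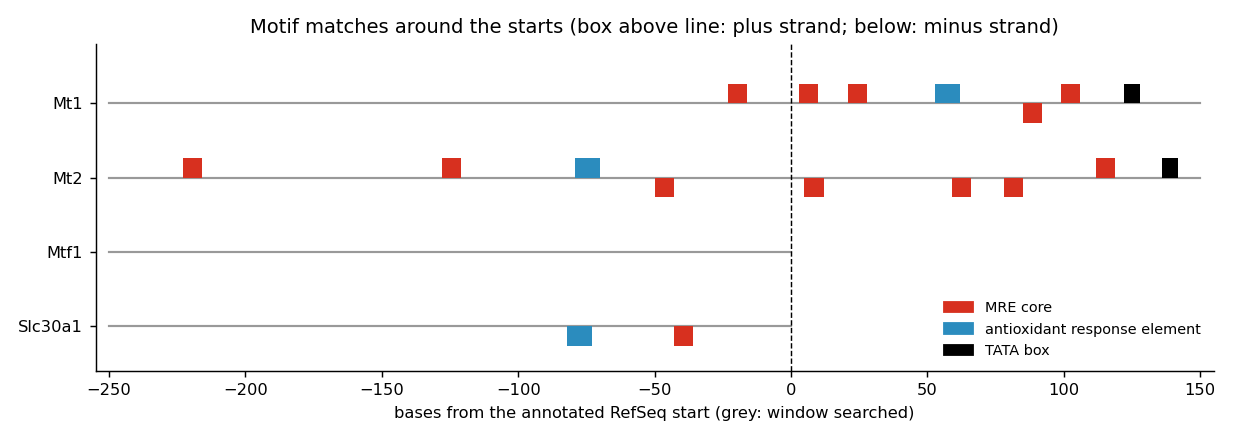
Position of motif matches against the annotated start of each gene, in bases. The grey line is the window searched, which went past the start for Mt1 and Mt2 only, and boxes above and below it are matches on the plus and minus strand. Mt1 and Mt2 each carry 4 MRE cores and then a TATAAA after the start, and Mtf1 carries none of the motifs in its window.

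The 4 genes differed widely in level. Per length, control cells had 1446 ± 167 RPKM of Mt1, 184 ± 18.7 of Mt2, 4.51 ± 0.111 of Mtf1 and 1.90 ± 0.182 of Slc30a1 (SD, n = 3). Mt1 ranked between 32 and 66 among all genes by RPKM in control libraries, and Mt2 between 312 and 353. The transcripts of Mt1 and Mt2 share no run longer than 20 bases. Mt2, but not the other 3 genes, had 3 near copies elsewhere in the genome, of at least 100 bases and up to 88.3% identity, with which the authors' counting could have exchanged reads. The other metallothionein genes, Mt3 and Mt4, stayed at or under 0.0540 and 0.158 RPKM in all libraries and were not tested.

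Mt1, Mt2, Mtf1 and Slc30a1 were all higher at 135 min of HS than in control, with Mt2 7.42 times and Mt1 4.28 times the control mean. Slc30a1 was already 3.08 times the control mean at 45 min of HS. Under Tu, Slc30a1 was 2.37 times control at 45 min and back near it at 405 min, Mt2 was 1.65 times control at 45 min and 2.15 times at 405 min, Mt1 lay between 0.77 and 1.02 times control, and Mtf1 between 1.01 and 1.17 times. Levels given below are CPM scaled by TMM over all 18 libraries, and log2 fold changes come from edgeR fits of the 6 libraries of each comparison. In these bulk samples, a gene expressed by fewer cells and one with less RNA per cell cannot be told apart.

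**Figure D2:**
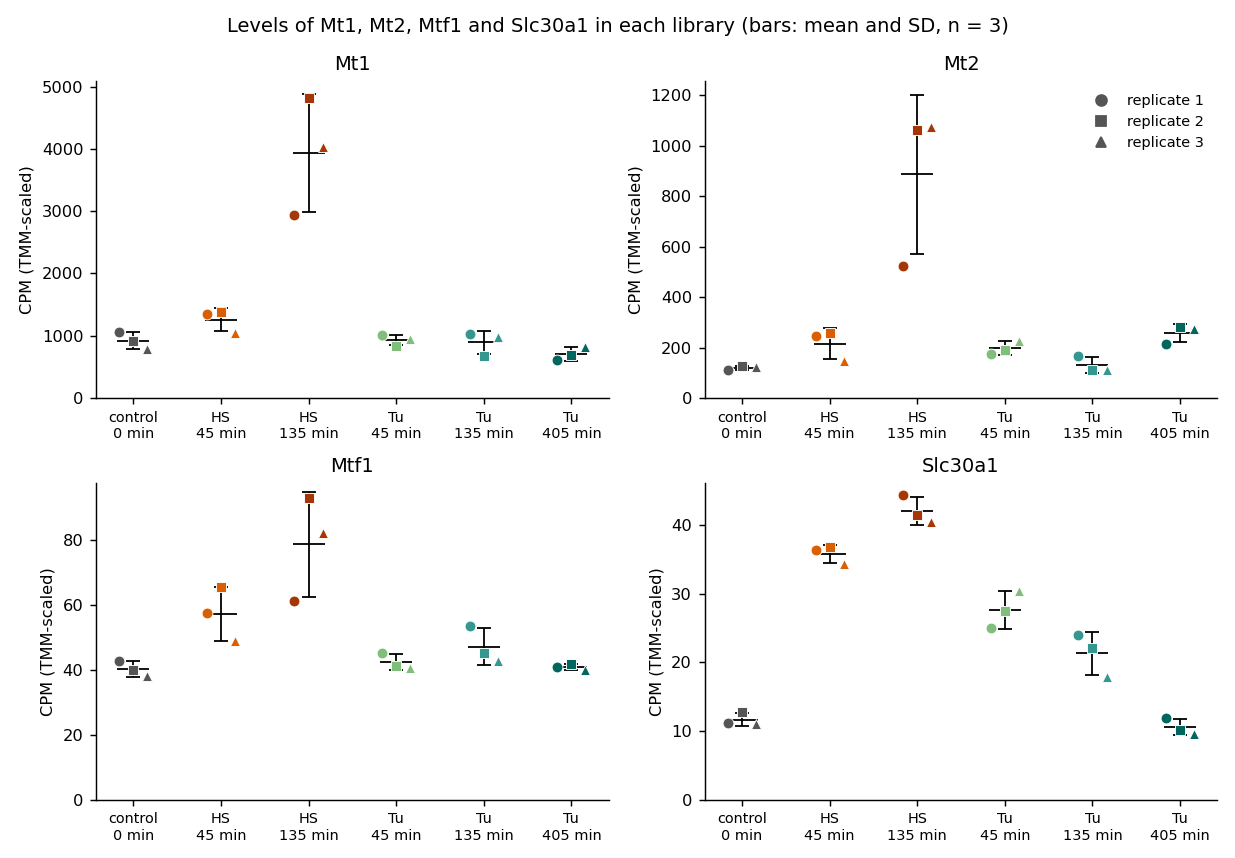
CPM of each gene in each library, on linear axes from 0, with the symbol giving the replicate number and bars the mean and SD of 3 libraries. Mt1 and Mt2 are highest at 135 min of HS, where replicate 1 lies well under the other 2 libraries, and Slc30a1 is above control in every group but Tu at 405 min.

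Mtf1, the zinc sensor of the set, had 42.8, 40.1 and 38.1 CPM in the 3 control libraries. It had 57.4, 65.6 and 49.0 CPM at 45 min of HS and 61.2, 92.9 and 82.2 CPM at 135 min. All heated libraries lay above all control libraries, while the ranges at 45 and 135 min overlapped by CPM, though not by RPKM. The log2 fold change was 0.51 (standard error 0.203) at 45 min and 0.97 (standard error 0.22) at 135 min. Under Tu, Mtf1 had 45.2, 41.4 and 40.5 CPM at 45 min, 53.6, 45.4 and 42.7 at 135 min, and 40.8, 41.9 and 40.0 at 405 min. Each of these ranges overlapped the control range, with log2 fold changes of 0.09, 0.24 and 0.04. By RPKM, Mtf1 at 45 min (4.599 to 5.563) and 135 min of Tu (4.904 to 5.392) lay above control (4.384 to 4.597), at 45 min narrowly. At 405 min of Tu (4.213 to 4.507) it overlapped control. The 3′ end of Mtf1 overlaps 1110065P20Rik (chr4:124526729-124527974), and since the sources used here do not say whether counting used strand, reads of the overlap cannot be assigned.

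Mt1 had 1054, 918 and 780 CPM in control. At 45 min of HS it had 1350, 1377 and 1052 CPM, and the lowest of these fell within the control range. At 135 min of HS it had 2937, 4825 and 4025 CPM, and even the lowest was above every library of every other group. The log2 fold change against control was 0.46 (standard error 0.233) at 45 min and 2.10 (standard error 0.276) at 135 min. Mt1 ranked 2nd or 3rd of all genes by RPKM at 135 min of HS. It had 1012, 840.5 and 944 CPM at 45 min of Tu and 1027, 678 and 974 CPM at 135 min, both overlapping control, with log2 fold changes of 0.04 and -0.02. At 405 min of Tu it had 603, 691 and 819 CPM, with a log2 fold change of -0.36 (standard error 0.174). This range also overlapped control. The scale matters here: by RPKM, which is scaled to the library total, all libraries at 45 min of HS (1704 to 1792) lay above and all at 405 min of Tu (941 to 1220) below the control range of 1269 to 1600.

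Mt2 had 110, 126 and 123 CPM in control, the narrowest spread among its groups. It had 244, 257 and 147 CPM at 45 min of HS, with replicate 3 close to control, and 525, 1062 and 1076 CPM at 135 min, with replicate 1 far under the other libraries. The log2 fold change was 0.85 (standard error 0.257) at 45 min and 2.89 (standard error 0.318) at 135 min, where Mt2 ranked between 42 and 84 among all genes by RPKM. Under Tu its course was not in 1 direction. It had 174, 191 and 228 CPM at 45 min, all above control, then 166, 113 and 111 CPM at 135 min, overlapping control, and 215, 284 and 273 CPM at 405 min, again all above control. The log2 fold changes were 0.74 (standard error 0.135), 0.13 (standard error 0.194) and 1.13 (standard error 0.144). In the order of group means, 405 min of Tu, 45 min of HS and 45 min of Tu followed 135 min of HS, and their ranges overlapped. The dip at 135 min of Tu was not particular to Mt2. Ddit3 had means of 541.8, 207.7 and 2630 CPM at 45, 135 and 405 min of Tu, and Ndrg1 152, 65.8 and 366. Hspa5 dipped as well, while Mt1, Mtf1 and Slc30a1 did not take this course. The cause of the shared dip was not tested.

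Slc30a1, the exporter, had the lowest level and, by CPM, kept all groups but control and 405 min of Tu apart from each other. By RPKM, its range at 45 min of HS (4.817 to 5.744) overlapped those at 135 min of HS (5.333 to 7.178) and 45 min of Tu (4.495 to 5.047). Slc30a1 had 11.2, 12.7 and 11.1 CPM in control, which rest on 444, 712 and 484 reads. At 45 min of HS it had 36.4, 36.8 and 34.3 CPM, and at 135 min 44.4, 41.4 and 40.5 CPM. The mean at 135 min was 1.18 times that at 45 min, beside 3.12 times for Mt1 and 4.11 times for Mt2. Log2 fold changes against control were 1.62 (standard error 0.208) and 1.86 (standard error 0.203). Under Tu it had 25.0, 27.4 and 30.5 CPM at 45 min, 24.1, 22.1 and 17.8 at 135 min, and 11.9, 10.2 and 9.65 at 405 min. The ranges went down from each time to the next without overlap, and the last overlapped control. The log2 fold changes against control were 1.26 (standard error 0.141), 0.89 (standard error 0.196) and -0.12 (standard error 0.145).

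Counted over the set by CPM, 3 of the 4 genes (all but Mt1) had every library at 45 min of HS above every control library. The same held for 12.5% of all 12731 genes. In HS at 135 min this held for 4 of 4, against 18.1% of all genes. Under Tu it held for Mt2 and Slc30a1 at 45 min (17.2% of all genes), for Slc30a1 alone at 135 min (13.7%) and for Mt2 alone at 405 min (29.2%). The genes were chosen with these values known, so nothing is read from the counts, and all 5 comparisons share the same control libraries.

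Libraries within a group differed in GC tilt. In HS at 135 min, replicate 1, with the lowest Mt1, Mt2 and Mtf1 of its group, had a correlation of level with GC content of -0.42, against 0.59 and 0.15 in replicates 2 and 3. In HS at 45 min, replicate 3, with the lowest Mt1, Mt2 and Mtf1, had -0.48, against 0.62 and 0.58. In control, replicate 1 had 0.06, against -0.57 in both others, with the lowest Mt2 (110 CPM) and the highest Mt1 (1054 CPM). The part of GC tilt in these differences between replicates was not tested. Transcript GC content was 54.5% for Mt1, 56.8% for Mt2, 49.4% for Mtf1 and 46.2% for Slc30a1. With an offset for GC content in each library, chosen after seeing the data, the log2 fold changes at 135 min of HS were 1.94 for Mt1, 2.55 for Mt2, 1.09 for Mtf1 and 2.16 for Slc30a1. The values at 45 min of HS were 0.29, 0.42, 0.73 and 2.08, beside 0.46, 0.85, 0.51 and 1.62 without the offset. Without replicate 1, the values at 135 min of HS were 2.27 for Mt1, 3.16 for Mt2, 1.12 for Mtf1 and 1.82 for Slc30a1.

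Both metallothioneins together took 0.107% of the reads on genes in control (SD 0.0103, n = 3) and 0.435% at 135 min of HS (SD 0.0705, n = 3), but their proportions shifted. Mt2 made up 9.22, 11.7 and 13.3% of their summed RPKM in the control libraries. The share at 135 min of HS was 14.8, 17.6 and 20.6%, and at 45 min of Tu 14.3, 18.1 and 19.0%, both above the control range. At 405 min of Tu it was 25.7, 28.5 and 24.4%, above every library of every other group. Here the level of both together, 0.0941% of reads (SD 0.0117, n = 3), overlapped control, while Mt2 was higher and Mt1 lower by mean. The shares at 45 min of HS (11.9 to 15.4%) and 135 min of Tu (9.96 to 13.9%) overlapped control. Because Mt1 and Mt2 are read from the same library, this share does not depend on how libraries are scaled against each other. It is not free of GC tilt within a library, as transcript GC content was 54.5% for Mt1 and 56.8% for Mt2. Nor is it free of reads exchanged with the near copies of Mt2. The part of either in the share was not tested.

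**Figure D3:**
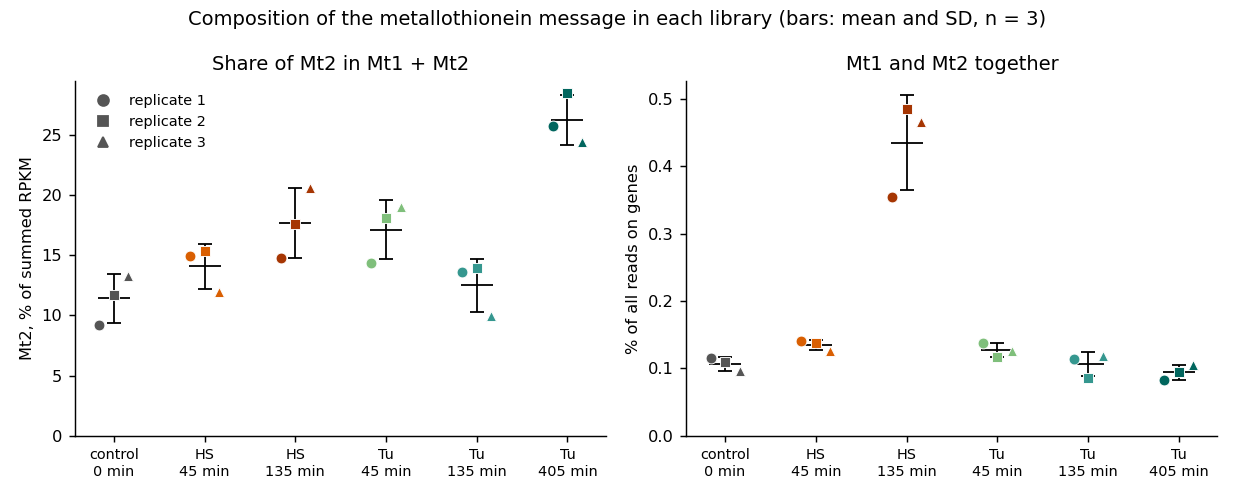
Left, Mt2 as a percentage of the summed RPKM of Mt1 and Mt2; right, reads on both genes as a percentage of all reads on genes, in each library with the mean and SD of 3. The share of Mt2 is highest at 405 min of Tu (24.4 to 28.5%), where the sum lies near control, and the sum is highest at 135 min of HS (0.354 to 0.485%).

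Set directly against Tu at the same time, HS gave higher levels of all 4 genes at 135 min, with every HS library above every Tu library, as for 13.4% of all genes. The log2 fold change was 2.11 (standard error 0.282) for Mt1, 2.74 (standard error 0.34) for Mt2, 0.71 (standard error 0.214) for Mtf1 and 0.96 (standard error 0.194) for Slc30a1. At 45 min the differences were smaller. By CPM, Mt1, Mtf1 and Slc30a1 were higher in every HS library, as were 13.1% of all genes, with log2 fold changes of 0.43, 0.43 and 0.37. Scaled by library totals alone these were 0.14, 0.14 and 0.09, as the median of all genes moved by -0.27 on the log2 scale with that choice. By RPKM the ranges of each of these genes overlapped between the stresses. HS and Tu had 1704 to 1792 and 1446 to 1761 for Mt1, and 5.394 to 5.887 and 4.599 to 5.563 for Mtf1. For Slc30a1 the ranges were 4.817 to 5.744 and 4.495 to 5.047. Mt2 overlapped between the stresses at 45 min, at 0.13 (standard error 0.245), and took the opposite sign, -0.24, with the GC offset. No comparison at 405 min could be made, as HS ended at 135 min.

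**Figure D4:**
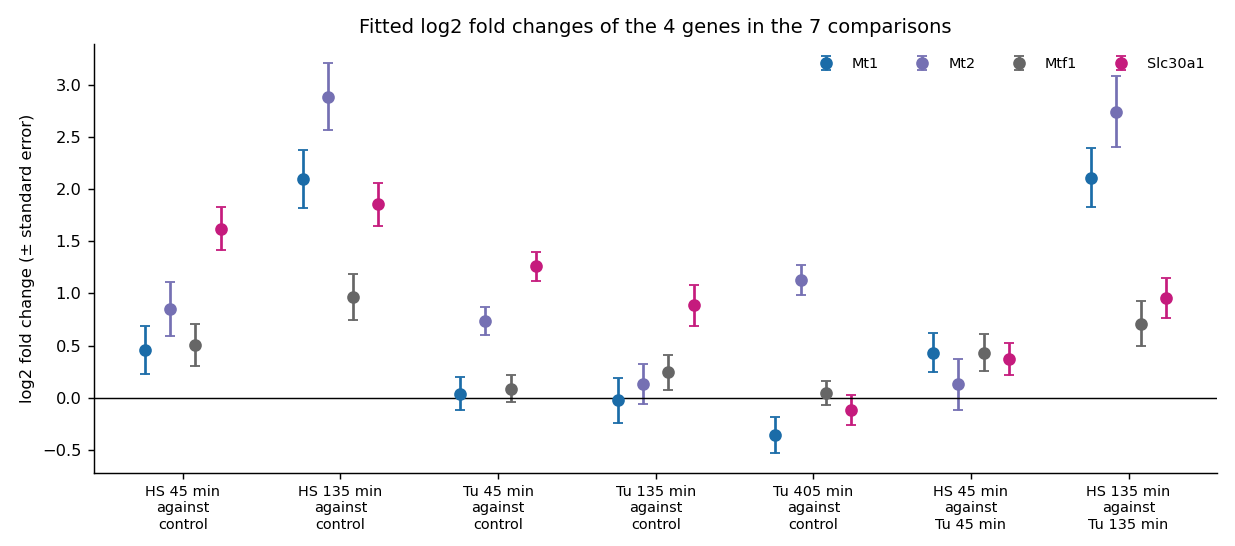
Log2 fold change of each gene in each of the 7 comparisons, with the standard error of the edgeR fit as bars. The largest values are those of Mt2 and Mt1 at 135 min of HS, against control (2.89 and 2.10) and against Tu (2.74 and 2.11), and at 405 min of Tu Mt2 (1.13) and Mt1 (-0.36) lie on opposite sides of 0.

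Across the 18 libraries, the pattern of each gene was compared with those of 8279 genes with a mean of at least 10 CPM, by the root mean square difference of log2 CPM relative to the control mean, a small value meaning a like pattern. Nearest to Mt1 were St13 (0.36), Fkbp4 (0.38) and Stip1 (0.38), which encode cochaperones of HSP70 and HSP90. Nearest to Mt2 were D8Ertd82e (0.33), Tmem86a (0.40) and Sash1 (0.41). Nearest to Slc30a1 were Bhlhe40 (0.31), a transcriptional repressor of the clock, Tenc1 (0.35) and Atoh8 (0.36), and nearest to Mtf1 were Stim1 (0.15), the calcium sensor of the endoplasmic reticulum, Rnf216 (0.17) and Gltp (0.17). The metallothioneins were not among each other's nearest genes: Mt2 ranked 1213th for Mt1, at 0.78, and Mt1 ranked 142nd for Mt2. This distance depends on the size of changes as well as on their direction. Mtf1, which changed less, ranked 63rd for Mt1, at 0.53, although Mt1 and Mt2 were both highest at 135 min of HS. Stim1 had 30.6 CPM in control and 53.3 at 135 min of HS, and Bhlhe40 went from 42.8 to 166 CPM and was at 28.6 CPM at 405 min of Tu. Genes that change little lie near Mtf1 for that reason, and all of these distances share the same libraries and their GC tilt.

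Of 51 other genes of metal handling, 43 were tested. By the quasi-likelihood test of edgeR, 4 rose and 2 fell at 135 min of HS, where 4.75% of all genes rose and 2.64% fell, 7.39% together. All adjusted p-values below come from this test and the Benjamini-Hochberg method. The median log2 fold change of the 43 was -0.09, against -0.02 over all genes. Of the 4 listed genes reported as MTF1 targets, 3 rose at 135 min of HS. Ndrg1, a gene induced by hypoxia and metals, went from 47.2 to 154 CPM, which was 1.70 on the log2 scale (standard error 0.206, adjusted p = 0.0122). Csrp1, a LIM domain protein gene, rose by 0.96 on that scale (standard error 0.195, adjusted p = 0.0298), and Pgf, which encodes placental growth factor, by 3.52 from only 0.255 CPM (standard error 0.567, adjusted p = 0.0199). Sepw1, a selenoprotein gene, had a log2 fold change of 1.09 (adjusted p = 0.0796). No gene of these lists passed when control replicate 2, control replicate 3 or replicate 3 of HS at 135 min was left out. Those fits called only 0.118, 0.0864 and 0.0864% of all genes. Without replicate 1 of HS at 135 min 14 passed, in a fit that called 19.4% of all genes.

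Of 6 other zinc exporters tested, 0 passed at 135 min of HS in edgeR (3 at an unadjusted p under 0.05), and their median log2 fold change was -0.59. Among 12 zinc importers, Slc39a10, a plasma membrane importer, fell by 1.52 (standard error 0.357, adjusted p = 0.0436), and Slc39a2 rose, from 0.0387 to 0.285 CPM, the former under the floor of 3 reads. Slc31a1, the copper importer, fell by 1.78 (standard error 0.322, adjusted p = 0.0236), the single call of 10 copper handling genes, and 0 of 11 iron handling genes passed (5 at an unadjusted p under 0.05). After 45 min of HS no gene of the lists passed in edgeR, as 0% of all genes did, although 15 of the 43 and 2480 of all genes had an unadjusted p under 0.05 and DESeq2 called 1 of the 43, in a fit that called 3.54% of all genes. Without replicate 3 of HS at 45 min, 28 of the 43 passed, in a fit that called 45.5% of all genes.

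**Figure D5:**
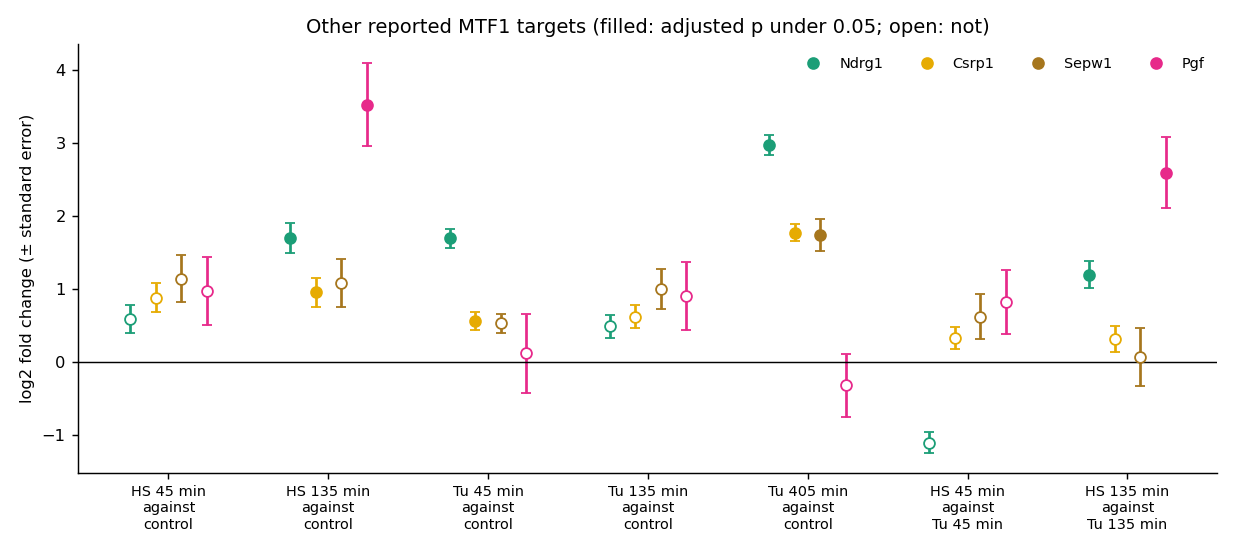
Log2 fold change and standard error of 4 other genes reported as MTF1 targets in the 7 comparisons, filled where the adjusted p from edgeR was under 0.05. Ndrg1 passed at 135 min of HS, against both control and Tu, and at 45 and 405 min of Tu, and Pgf passed at 135 min of HS alone, against both control and Tu.

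Under Tu for 45 min, 2 of the 43 rose and 2 fell, where 4.01% of all genes rose and 2.17% fell (6.17% together). Ndrg1 rose by 1.70 (standard error 0.129, adjusted p = 0.00122), the value it had at 135 min of HS, and stayed called without any 1 library. Csrp1 rose by 0.56 (standard error 0.122, adjusted p = 0.0404), while Slc39a10 fell by 1.42 (standard error 0.243, adjusted p = 0.0204) and Slc30a5, an exporter into the secretory pathway, fell by 0.71. Between 1 and 9 of the 43 passed when 1 library was left out, with 9 without control replicate 1 (19.6% of all genes called). Without control replicate 2, control replicate 3 or Tu replicate 2, 1 passed. Those fits called 0.801, 0.754 and 0.456% of all genes. After 135 min of Tu none of the 43 passed in edgeR, against 0.134% of all genes, and 12 had an unadjusted p under 0.05. With the replicate block edgeR called 0 of the 43 and 0 of all genes. DESeq2 called 4 of the 43, in a fit that called 5.22% of all genes.

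At 405 min of Tu, when Slc30a1 was back in the control range, 14 of the 43 rose and 10 fell, where 23.3% of all genes rose and 23.5% fell (46.8% together). Ndrg1 rose by 2.98 (standard error 0.135, adjusted p = 8.46e-06), Csrp1 by 1.78 (standard error 0.12, adjusted p = 3.17e-05) and Sepw1 by 1.74 (standard error 0.224, adjusted p = 0.000536), while Pgf did not pass. Of the 6 zinc exporters, 3 rose, all transporters that load zinc into vesicles or the secretory pathway. They were Slc30a3, by 1.61 from only 0.14 CPM in control, Slc30a5, by 0.81, and Slc30a7, by 0.54. Of 12 zinc importers, 2 rose and 4 fell, and the largest changes were those of Slc39a7 (1.31), which releases zinc from the endoplasmic reticulum, and Slc39a10 (-1.42). Of 11 iron handling genes, 4 rose and 2 fell. Among them the ferritin receptor gene Ncoa4 rose by 1.31, the ferritin genes Ftl1 and Fth1 rose by 0.98 and 0.94, and Tfrc, the transferrin receptor, fell by 2.48. Of 10 copper handling genes, 2 rose, among them Ccs (0.95), the copper chaperone of superoxide dismutase, and 4 fell, among them the copper pump gene Atp7b (-0.96). In the same libraries 6 of the 8 fibroblast markers fell, and their part in these results was not tested.

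Set against Tu at the same time, 2 of the 43 were higher under HS at 135 min and 0 lower, where 1.3% of all genes were higher and 0.817% lower (2.12% together). They were Ndrg1, by 1.197 (standard error 0.185, adjusted p = 0.0383), and Pgf, by 2.60 (standard error 0.482, adjusted p = 0.0483). Neither passed without replicate 3 of HS or without any 1 of the 3 Tu libraries, in fits that called 0 to 0.0236% of all genes. Without replicate 2 of HS 1 passed, in a fit that called 0.966% of all genes. For HS against Tu at 45 min, 0 of the 43 passed in edgeR, as did 0.204% of all genes, where 10 had an unadjusted p under 0.05. DESeq2 called 3 of the 43, in a fit that called 8.85% of all genes.

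Within 200 kb of Mt1, Mt2, Mtf1 or Slc30a1, 15 other genes were tested. None passed at 135 min of HS in edgeR, against 7.39% of all genes, where 4 had an unadjusted p under 0.05. DESeq2 called 1, in a fit that called 17.0% of all genes. Around Mt1 and Mt2, the 4 genes tested had a median log2 fold change of 0.09. The nearest gene tested, Nup93, a nuclear pore gene 34.3 kb away, had 108.6 CPM in control and 41.3 at 135 min of HS (log2 fold change -1.39, standard error 0.617, adjusted p = 0.176). At 45 min of Tu, 2 of the 15 passed, beside 6.17% of all genes. They were Fhl3 near Mtf1, at 0.74 (adjusted p = 0.0192), and Traf5 near Slc30a1, at 0.70 (adjusted p = 0.0368), and each kept its call in 1 of the 6 fits without 1 library. At 405 min of Tu, 9 of the 15 passed, 6 higher and 3 lower, beside 46.8% of all genes. Around Mt1 and Mt2, Nudt21 rose by 0.68 (adjusted p = 0.0214) and Nup93 fell by 0.75 (adjusted p = 0.00784), while Ogfod1 and Bbs2 had -0.17 and 0.12 and did not pass. Around Mtf1, which itself was at 0.04, Yrdc, 0.959 kb away, rose by 1.81, the overlapping 1110065P20Rik by 1.57, Utp11l by 1.09, Inpp5b by 0.71 and 9930104L06Rik by 0.56. Around Slc30a1, Lpgat1 fell by 0.73 and Nek2 by 0.51.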

How the data were processed

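Poly(A) RNA was sequenced from 18 libraries in 6 groups of 3. Reads had been aligned to mm9 and counted on RefSeq genes by the authors on the DNAnexus platform, whose aligner and counter are not given in the sources used here. The authors deposited an estimated count per gene, not normalized and given to 4 significant digits. Low counts were fractional in 17.7% to 23.2% of cases, depending on the library. The authors further deposited RPKM, scaled to gene length and library total, and from it a score (RPKM minus its mean, divided by its SD) and a signal (RPKM divided by its root mean square). The last 2 deposited columns were not used here.

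Estimated counts were joined by gene name, rounded and fitted with edgeR 4.0.16 (R 4.3.3), with TMM scaling within each comparison of 3 against 3 libraries and the quasi-likelihood test, over 12731 genes with at least 1 read in each library, at a Benjamini-Hochberg threshold of 0.05. Standard errors come from the fold change and its F statistic. The fit was tested on simulated data. Replicates differed by more than sampling noise (chi-square per degree of freedom 15.1 to 822), so no library appeared to repeat another, which does not show that they came from separate cultures.

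The 4 genes, the gene lists and the motifs were chosen with earlier results of these data known, and the 4 genes carry no test. Named genes are the 4, list genes that passed (at most 4 a list and comparison, by size of change), neighbours within 200 kb that passed, and the 3 nearest in pattern. Genes named that did not pass were chosen after their values were seen. Alternatives were DESeq2 1.42.0 with its Wald test or size factors alone, library totals, other filters on low counts, a fit of all 6 groups, leaving out each library, the replicate number as a block and, added after seeing the data, a GC offset (lowess, span 0.3). The labels give replicate numbers and name no pairs. For 135 min of Tu against control only, same-numbered libraries all correlated positively in their deviations from the group means, at 0.194 to 0.287. In both groups replicate 1 stood apart in GC tilt, at 0.06 against -0.57 and -0.57 in control. At 135 min of Tu it had 0.57 against -0.34 and -0.33. The part of this tilt in the correlations was not tested. For 135 min of Tu against control, the block left the counts of list genes called at 0 and took those of all genes from 17 to 0. CPM and motif steps used Python 3.11.15.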

Additional observations from a re-analysis of the deposited data

Results flagged for a closer look

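Between HS and Tu at 135 min, 4 of the listed metal-handling and glucocorticoid-responsive genes differed in the direct comparison of both groups by edgeR (Benjamini-Hochberg adjustment), where 2.12% of all genes did. Of the 5 stress check genes, Hspa1a, Hspa1b, Hsph1 and Hspa5 also differed. Ndrg1 was higher under HS by 1.197 on the log2 scale (adjusted p = 0.0383, higher in 3 of 3 HS libraries), and Pgf by 2.598 (adjusted p = 0.0483), from a level of only 0.49 CPM under Tu. At 45 min Ndrg1 lay the other way, at -1.10 (standard error 0.142, adjusted p = 0.0577), with every HS library below every Tu library, and did not pass. Klf9, a Krüppel-like factor gene, had a log2 fold change of -0.9794 (adjusted p = 0.0411) and Sgk1, a kinase gene, one of -1.527 (adjusted p = 0.0463). Leaving out 1 library kept the call of Ndrg1 in 2 of 6 fits, of Pgf and Sgk1 in 1 of 6 and of Klf9 in 0 of 6.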

How the results depend on the processing

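Of 224 log2 fold changes of the 4 genes under alternatives other than leaving out a library, 208 moved by less than the spread between replicates. All 168 with 1 library left out did so too. Leaving out 1 of 3 libraries can hardly move a group mean by more than that spread, so nothing is read from the 168. Library totals moved the median of all genes by -0.16 and -0.17 for HS at 45 and 135 min, 0.11 for Tu at 45 min, and -0.27 and -0.15 for HS against Tu at 45 and 135 min. With library totals the log2 fold change became 0.33 for Mtf1 and 1.46 for Slc30a1 at 45 min of HS, 1.69 for Slc30a1 at 135 min of HS, 0.20 for Mtf1 at 45 min and -0.053 for Mtf1 at 405 min of Tu, and, for HS against Tu at 45 min, 0.14 for Mt1, 0.14 for Mtf1 and 0.093 for Slc30a1. With the GC offset it became 0.42 for Mt2, 0.73 for Mtf1 and 2.08 for Slc30a1 at 45 min of HS, 2.16 for Slc30a1 at 135 min of HS, 1.08 for Slc30a1 at 135 min of Tu, and -0.24 for Mt2, 0.67 for Mtf1 and 0.81 for Slc30a1 for HS against Tu at 45 min. Where these values differ from those above beyond the shift of the median, the cause was not tested.

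Counts of calls depended more on the choices made. In the order HS 45, HS 135, Tu 45, Tu 135 and Tu 405 min against control, then HS against Tu at 45 and 135 min, the main counts of metal-handling genes were 0, 6, 4, 0, 24, 0 and 2. DESeq2 called 1, 13, 7 and 4 in the first 4 comparisons and 3 for HS against Tu at 45 min. Of all genes it called 3.54, 17.0, 14.5 and 5.22% in the first 4 comparisons. For HS against Tu at 45 and 135 min it called 8.85 and 9.87% of all genes. The fit of all 6 groups called 6, 14, 2, 2, 13, 4 and 4. Its shares of all genes were 10.6, 25.5, 4.96, 3.23, 31.9, 9.98 and 13.9%. The GC offset called 13 at 135 min of HS, 8 at 45 min and 1 at 135 min of Tu. It called 1 and 6 for HS against Tu at 45 and 135 min. In this order, those fits called 21.2, 15.95, 2.37, 4.16 and 11.4% of all genes. Library totals called 1 for HS against Tu at 45 min, beside 0.911% of all genes. The counts of the other lists below come from the same fits. Of the glucocorticoid-responsive genes (main counts 0, 2, 2, 0, 6, 0 and 2), DESeq2 called 2 at 45 min of HS, 2 at 135 min of Tu, and 1 and 4 for HS against Tu at 45 and 135 min. The fit of all 6 groups called 2 and 4 at 45 and 135 min of HS, 2 at 135 min of Tu, and 1 and 6 for HS against Tu, the GC offset 4 at 135 min of HS, 2 at 135 min of Tu, and 2 and 4 for HS against Tu, and library totals 1 for HS against Tu at 45 min. Of the genes within 200 kb (main counts 0, 0, 2, 0, 9, 0 and 0), DESeq2 called 1 at 45 and 1 at 135 min of HS, the GC offset 2 at 135 min of HS, and the fit of all 6 groups 3 at 45 min and 4 at 135 min of HS, 5 at 405 min of Tu and 1 for HS against Tu at 135 min.

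Same-numbered libraries did not deviate together outside 135 min of Tu, with mean correlations of 0.15 and -0.15 for HS at 45 and 135 min, -0.15 and -0.05 for Tu at 45 and 405 min, and -0.50 and -0.38 for HS against Tu at 45 and 135 min. With the replicate block, 0 metal-handling genes were called at 135 min of HS, 1 at 45 min of Tu and 0 for HS against Tu at 135 min. In the same order, the block called 0, 0.165 and 0% of all genes. The block left 0 glucocorticoid-responsive genes at 135 min of HS, 1 at 45 min of Tu and 0 for HS against Tu at 135 min, and 0 genes within 200 kb at 45 min of Tu, and it moved no other count by over 1.5 times.

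Leaving out 1 library gave 0 to 28 metal-handling genes at 45 min of HS, 0 to 14 at 135 min of HS, 1 to 9 at 45 min of Tu, and 0 to 28 and 0 to 2 for HS against Tu at 45 and 135 min. The ranges were 0 to 2, 0 to 2, 1 to 4 and 0 to 1 glucocorticoid-responsive genes for the first 4 comparisons, and 0 to 3 and 0 to 2 for HS against Tu at 45 and 135 min. For genes within 200 kb they were 0 to 9 at 45 min and 0 to 2 at 135 min of HS, 0 to 6 at 45 min and 5 to 10 at 405 min of Tu, and 0 to 11 for HS against Tu at 45 min. The highest counts at 45 min of HS came without its replicate 3, where 45.5% of all genes were called against control and 55.7% against Tu. Across the fits without 1 library, the share of all genes called ran from 0.0864 to 19.4% at 135 min of HS. It ran from 0.456 to 19.6% at 45 min of Tu, 0 to 0.479% at 135 min and 31.95 to 62.0% at 405 min. For HS against Tu at 135 min it ran from 0 to 2.86%.

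With 3 libraries a group, calls rest on few samples, and Pgf, Slc30a3 and Slc39a2 lay near the floor of 3 reads in control.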

Other observations

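Metallothionein genes are textbook targets of the glucocorticoid receptor, and 6 of 8 listed glucocorticoid-responsive genes were tested beside them. At 135 min of HS, when Mt1 and Mt2 were highest, Tsc22d3, which encodes the glucocorticoid-induced leucine zipper protein, rose from 17.0 to 99.9 CPM, or by 2.56 on the log2 scale (standard error 0.275, adjusted p = 0.00832 by edgeR), and Sgk1 fell by 1.40 (adjusted p = 0.038), so that 2 of 6 passed, beside 7.39% of all genes. The other 4 did not pass, among them Fkbp5, a cochaperone gene, at -0.53 and Per1, a clock gene, at -0.14, and the median of the list was -0.26. At 45 min of Tu, Tsc22d3 rose by 1.93 (adjusted p = 0.00101) and Klf9 by 0.73 (adjusted p = 0.0166), again 2 of 6, beside 6.17% of all genes. At 405 min of Tu 3 of the 6 rose and 3 fell, beside 46.8% of all genes called. The largest changes were those of Sgk1 (-2.15), Tsc22d3 (1.45), Fkbp5 (-1.10) and the receptor gene Nr3c1, which went from 57.7 to 22.2 CPM (log2 fold change -1.35, adjusted p = 0.000547). Without control replicate 2, control replicate 3 or replicate 3 of HS at 135 min, none of the 6 passed at 135 min of HS. Those fits called only 0.118, 0.0864 and 0.0864% of all genes.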
